A study of Daphnia magna with 3 samples.

Results

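The genes of the Wnt, Notch, Hedgehog, bone morphogenetic protein (BMP) and Hippo signalling pathways, with those of fibroblast growth factor (FGF) signalling, were examined in Daphnia magna, a small freshwater crustacean known as a water flea. They were taken as the records whose deposited description held any of 14 words, such as wnt, frizzled, notch, patched, smoothened, bone morphogenetic, mothers against, hippo and fibroblast growth factor. This gave 69 records out of 47109, of which 25 were Wnt records, 10 Notch, 9 Hedgehog, 12 BMP, 12 FGF and 1 Hippo. A gene model that the annotation had split stood as separate records, so that the 69 records came from 60 models. The series held only wild-type females of the NIES strain aged 12 days, collected while releasing the 2nd clutch. Each of the 3 libraries (replicates 1 to 3) came from the whole bodies of 5 animals with the eggs flushed out of the brood chamber, fed with Chlorella at the study's nutrient-rich level. No mutant, treatment or second condition was included, and the levels below are a baseline that can be compared between genes and between libraries, but not between conditions. Because whole animals were pooled, fewer cells of a type and less RNA per cell cannot be told apart.

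These pathways carry signals between neighbouring cells and pattern the body, the appendages and the nervous system of animals. Wnt, Hedgehog, BMP and FGF ligands are secreted proteins, whereas the canonical ligands of Notch stay in the membrane of the sending cell. Frizzled receptors pass a Wnt signal through Dishevelled to beta-catenin, known as Armadillo in Drosophila. Patched holds Smoothened in check until Hedgehog binds it, and BMP receptors phosphorylate Smad proteins, which then enter the nucleus. FGF receptors are tyrosine kinases, and the Hippo kinase cascade restrains the growth-promoting coactivator Yorkie. In an adult Daphnia female such genes could be used in ovary, gut renewal, the nervous system and the epidermis that makes a new cuticle at each molt, and a library of the whole body holds all of these together.

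The words did not cover the pathways evenly, and not every record belonged to the pathway whose word it held. The word hippo matched only Hippocampus abundant transcript 1, a membrane protein of a transporter superfamily, and yorkie matched 0 records. The word delta-like matched only the delta subunit of the chaperonin T-complex protein 1, and decapentaplegic matched only Smad proteins. In all, 8 records were named for another gene, namely these chaperonin and transporter records, 3 records of strawberry notch, 1 of notchless and 2 of the acidic fibroblast growth factor intracellular-binding protein (FIBP). They were kept in the counts over the 69 records and are set apart by name. The deposited gene ontology terms named Wnt signalling for 23 of the 25 Wnt records, Notch signalling for 2 of 10, Smoothened signalling for 4 of 9, BMP or transforming growth factor beta signalling for 7 of 12, and FGF for 1 of 12.

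A total of 56 of the 69 records (81.2%) had counts in all libraries, whereas 65.5% of all described records and 42.3% of all records did. A further 3 had counts in some libraries and 10 in none. Those 10 were BMP10, a short record of Wnt-5b-like and 8 parts of split models, which spanned 27 to 457 bases each and belonged to Frizzled-7, Mothers against dpp, BMP3-like, FIBP, interference hedgehog, an FGF receptor, Wnt-6-like and a record described as Protein Wnt. Total counts were 8843488, 8679171 and 9092389 in replicates 1, 2 and 3. A count of 0 at this depth allows a level of 0.354, 0.353 and 0.309 CPM, where CPM is the count scaled by the TMM effective library size. These limits cover counting error only. The 69 records together took 0.129%, 0.117% and 0.111% of the counts. Levels of different genes are given in TPM, which takes length into account. The median level of the records detected in all libraries was 3.45 TPM (percentile 39.2 of all detected records), whereas that of described records was 10.9 TPM and that of all records 6.25 TPM. By CPM, which does not remove length, the members' median lay at percentile 52.6. As a check on the label whole body, marker lists of the ovary, dividing cells, muscle, nervous system, cuticle-forming epidermis and gut all had detected records, among them vasa, nanos, twitchin and elav. No record of the neural marker complexin had counts.

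The levels differed by role. The 25 ligand records were the lowest class: 19 of them were detected in all libraries, with a median of 1.68 TPM, and 0 exceeded 10 TPM. The 19 records of receptors, co-receptors and Smoothened had a median of 6.17 TPM over the 14 detected, and 4 of them exceeded 10 TPM. The 5 detected records of intracellular transducers, 4 Smads and Dishevelled, lay between 12.9 and 52.7 TPM, with a median of 23.0 TPM. This order held in every library, with medians of 1.87, 1.29 and 1.40 TPM for ligands, 6.66, 6.22 and 5.60 TPM for receptors, and 26.1, 23.2 and 23.0 TPM for transducers in replicates 1, 2 and 3. All transducers were Wnt or BMP records, so that the order covers the selected records and not the pathways as a whole. The classes were formed from the descriptions, and their levels are given as a description without a test.

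Because the series held 1 group, the test asked whether a record differed between libraries by more than counting error (chi-square on the counts, adjusted over all records whose mean count reached 10). This was the case for 24 of the 49 members tested (49.0%), close to the background of 54.5% of all records tested and 56.2% of the described ones. Such a call measures a difference between pools or library preparations, not an effect of a condition. The share called also depends on the counts. Over all records it was 30.7% without the filter on counts and 63.8% when the filter was raised to 50. The backgrounds given for the groups below were not matched for counts. When the spread usual for records of the same abundance was allowed for (negative binomial test with the trended dispersion of edgeR), 0 of 49 members were called, and 0 had an unadjusted p under 0.05. Over all records 1.35% were called by this test and 4.59% had an unadjusted p under 0.05. On data simulated with the trended dispersion, it recovered 3 of 100 changes of 2-fold and 29 of 100 of 4-fold. The test against counting error recovered 75 and 95 of 100, but on data simulated with counting error alone. Ranges narrower than 2-fold, as in most members, were not simulated. The lack of calls therefore does not show that the members were even. No member with a mean CPM of at least 10 had a library 2-fold above or below both others (0 of 27), whereas 4.19% of all records did. At 1.5-fold this was true of 1 of 27 members, against 16.9% of all records. The call of 22 of the 24 members was lost when 1 library was left out, for 13 members without replicate 1, 5 without replicate 2 and 12 without replicate 3.

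Wnt ligands made up 16 records, of which 12 were detected in all libraries, and they were scarce. The most abundant was Wnt-7b (Dapma7bEVm011734sc00626NoSplit; scaffold00626, 1157553 to 1164768, minus strand), with 5.24, 7.16 and 6.61 TPM in replicates 1, 2 and 3. Its lowest library exceeded the highest library of the next ligand, Wnt-8b, which had 2.14, 4.15 and 4.32 TPM. Wnt-1-like followed with 2.13, 4.55 and 3.41 TPM, and the long record of Wnt-5b-like with 2.35, 2.87 and 2.93 TPM. The ranges of these 3 overlapped. Wnt-16-like had 2.82, 1.29 and 2.05 TPM and Wnt-9a 1.96, 1.66 and 1.40 TPM. Wnt-1, the counterpart of the Drosophila segment polarity gene wingless, rested on 13, 15 and 14 counts, or 1.15 ± 0.0971 TPM (SD, n = 3). Wnt-4 had 8, 15 and 8 counts and WNT2 had 11, 11 and 12 counts, which over its 4708 bases came to 0.316 ± 0.00113 TPM. Near the detection limit were Wnt-11b-2-like (5, 2 and 5 counts), Wnt-10a (1, 4 and 2) and Wnt-6-like part 2 (1, 4 and 1). A short second record of Wnt-5b-like, the first part of Wnt-6-like and a first fragment described only as Protein Wnt had no counts, and the other fragment of Protein Wnt had 1, 1 and 0 counts.

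Of the 9 Wnt ligands tested, 2 varied beyond counting error (22.2%, against 54.5% of all records). Only 1 Wnt ligand had a mean CPM of at least 10, and the background was not matched for counts. The lower share therefore does not show that the ligands were more even than other records. Wnt-1-like had 2.36, 5.06 and 3.61 CPM (adjusted p = 0.0295), and Wnt-8b had 2.36, 4.59 and 4.54 CPM (adjusted p = 0.0493). In both, replicate 1 was the lowest library. The call of Wnt-1-like was lost without replicate 1 or without replicate 2, and that of Wnt-8b without replicate 1, with DESeq2 size factors (adjusted p = 0.0507) and without the filter on counts (adjusted p = 0.0798). Over the 12 detected ligands, the median deviation of a library from the mean of the others was -0.26, 0.25 and -0.02 on the log2(CPM + 0.5) scale in replicates 1, 2 and 3, and 10 of 12 were higher in replicate 2. Among all records detected in all libraries 10259 of 19927 were.

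**Figure D1:**
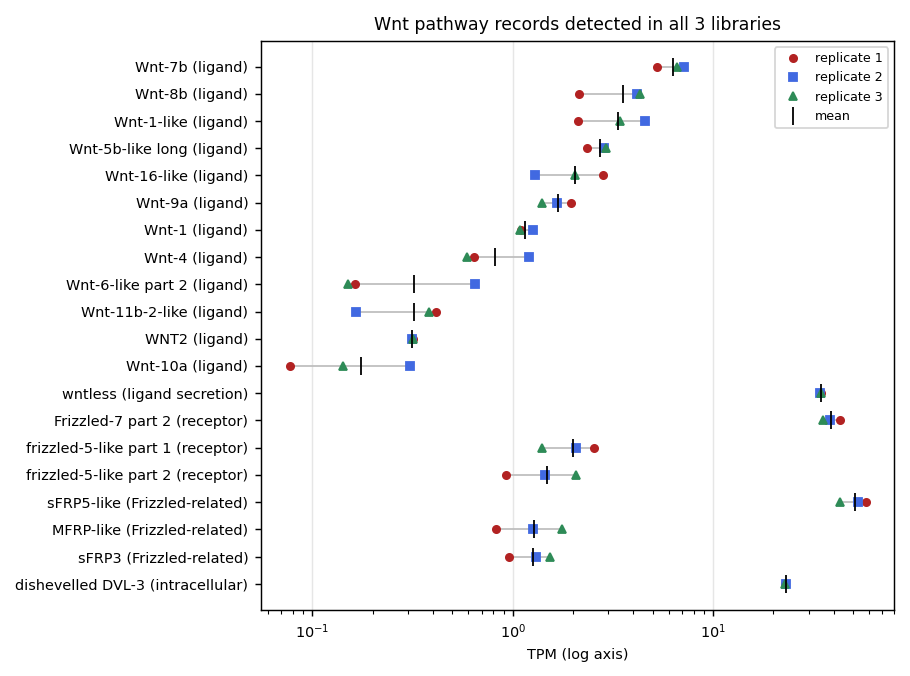
Level in TPM (log axis) of each Wnt pathway record detected in all 3 libraries, ordered by role; coloured points are the libraries and black bars their mean. All ligands lie under 10 TPM, whereas wntless, Frizzled-7 part 2, the sFRP5-like record and Dishevelled lie between 22.8 and 57.7 TPM.

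Several Wnt ligand records lay next to each other in the genome. On scaffold00512, Wnt-10a, Wnt-6-like part 2, Wnt-1 and Wnt-9a lay within 69.9 kb (949356 to 1019232), with gaps of 15150, 6415 and 21037 bases between them. These were the only 4 described records among the 20 records of that stretch. Neighbouring genes of the Wnt1, Wnt6, Wnt9 and Wnt10 subfamilies are known from Drosophila and many other animals. Wnt-6-like part 2 was on the plus strand and the others on the minus strand. Within this group the levels were ordered Wnt-9a (1.68 ± 0.281 TPM), Wnt-1 (1.15 ± 0.0971 TPM), Wnt-6-like part 2 (0.321 ± 0.284 TPM) and Wnt-10a (0.175 ± 0.118 TPM; SD, n = 3 each), and the ranges of the last 2 overlapped. On scaffold00626, 5 Wnt records lay within 26.8 kb (1139856 to 1166640), and these were again the only described ones among 26. The long Wnt-5b-like record spanned the whole stretch on the plus strand and enclosed Wnt-7b on the minus strand. Whether counting used strand is not given in the sources used here, so that reads of Wnt-7b and of the long Wnt-5b-like record may have been divided between them.

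**Figure D2:**
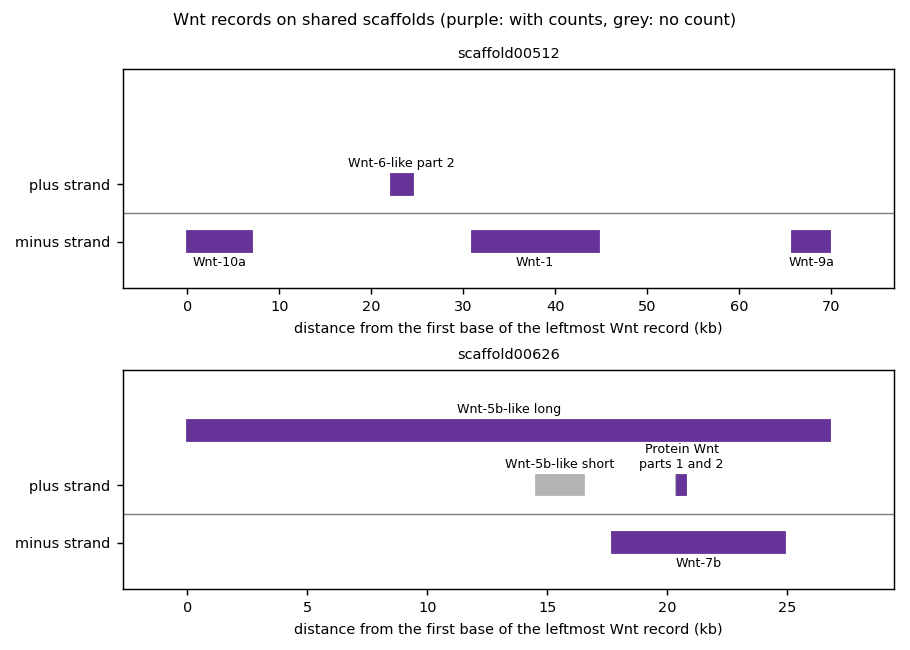
Position of the Wnt records on the 2 scaffolds that hold several, in kb from the first base of the leftmost record; boxes are the spans of the records by strand, purple where a library had counts and grey where none had. The 4 records of scaffold00512 are separated by gaps, and on scaffold00626 the long Wnt-5b-like record encloses the others.

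The records of Wnt secretion, reception and transduction held both abundant and scarce ones. Wntless, the membrane protein that takes Wnt ligands to the cell surface, had 34.7, 34.2 and 34.6 TPM (34.5 ± 0.292, SD, n = 3). Dishevelled (described as homolog DVL-3) had 22.8, 23.2 and 23.0 TPM. Both were even across libraries: their CPM differed by 1.05-fold and 1.06-fold at most, and neither varied beyond counting error (adjusted p = 0.732 and 0.704). Of the receptors, Frizzled-7 part 2 (Dapma7bEVm010819sc00996Split02; scaffold00996, 187767 to 190638, minus strand) led with 42.8, 38.5 and 35.2 TPM, and it had the highest mean of the receptor records, although its range overlapped that of the BMP receptor. The parts of frizzled-5-like stood at 2.54, 2.07 and 1.39 TPM and at 0.929, 1.44 and 2.08 TPM, and thus ran in opposite directions across the libraries although they belong to 1 gene model and share 133 bases. The adjusted p was 0.00651 for the first part and 0.0581 for the second. The first part lost its call without replicate 1 or replicate 3, and the second part gained one without replicate 2 and with scaling to total counts (adjusted p = 0.0198). The summed Frizzled records had 46.2, 42.0 and 38.7 TPM, and the summed Wnt ligands 19.7, 25.9 and 23.4 TPM. The log2 ratio was 0.88 ± 0.30 and positive in 3 of 3 libraries (SD, n = 3; exact two-sided sign-flip permutation test, p = 0.25, also 0.25 when adjusted over 4 ratios), and 0.25 is the smallest p that 3 libraries allow.

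The sFRP5-like record, of a family of secreted Frizzled-related proteins that bind Wnt ligands outside the cell, had 57.7, 52.7 and 43.0 TPM, and only the main record of Mothers against dpp had a higher mean among the 69 records. In CPM it had 72.9, 66.7 and 51.7 in replicates 1, 2 and 3 (adjusted p = 1.75e-07). Frizzled-7 part 2 had 88.5, 79.8 and 69.3 CPM in the same order of libraries (adjusted p = 8.21e-05). Both calls were lost without replicate 3, and that of Frizzled-7 part 2 also with scaling to total counts. The sFRP3 record and the membrane Frizzled-related record stood at 1.27 ± 0.292 and 1.28 ± 0.462 TPM (SD, n = 3), and neither was called.

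Of 18 further records of Wnt pathway genes, found by other words in the descriptions, 14 were tested and 12 varied beyond counting error (85.7%, against 54.5% of all records, not matched for counts). All 14 had a mean CPM of at least 10. In 11 of the 12 called records replicate 1 was the highest and replicate 3 the lowest library, an order that 14.0% of all tested records had as a call. Of the Armadillo records, the fragment on a contig had 96.5, 81.9 and 63.3 TPM and the main record 62.3, 55.9 and 53.8 TPM. Casein kinase I epsilon, a kinase of the pathway, had 89.3, 69.8 and 68.6 TPM. Glycogen synthase kinase 3 beta, which marks beta-catenin for degradation, had 62.5, 58.9 and 35.8 CPM (adjusted p = 4.46e-16). A groucho-like corepressor had 92.5, 57.0 and 50.5 CPM (adjusted p = 4.77e-29). Porcupine-like, the acyltransferase that modifies Wnt ligands, had 34.4, 19.7 and 19.3 CPM (adjusted p = 2.04e-11). The co-receptor record described as low-density lipoprotein receptor-related protein 6 had 65.2, 46.5 and 39.4 CPM (adjusted p = 1.49e-13). The scaffold proteins were lower, with 13.0, 12.3 and 10.4 TPM for axin-2 and 10.2, 10.6 and 7.33 TPM for adenomatous polyposis coli-like. Over the 14 detected records the median deviation was 0.43, 0.07 and -0.45 in replicates 1, 2 and 3, and 14 of 14 were higher in replicate 1. Among all detected records 10029 of 19927 were.

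Notch signalling was represented by 3 receptor records, and their values ran differently across libraries. The record described as neurogenic locus notch homolog protein 2 (notch 2 B in the plots; Dapma7bEVm003480sc01363NoSplit; scaffold01363, 297138 to 305647, plus strand) was the most abundant, with 28.5, 20.9 and 15.7 TPM. It had 1135, 835 and 680 counts, or 134, 98.3 and 70.1 CPM, a 1.91-fold range (adjusted p = 7.49e-40), and it was the widest range of any member with a mean CPM of at least 10. Neurogenic locus Notch (scaffold02193, 47457 to 61586, minus strand), a record of 8306 bases, had 77.7, 80.7 and 50.5 CPM (adjusted p = 5.93e-16). Here only replicate 3 stood lower, at least 1.5-fold under both others, and without it the call was lost. The record described as notch homolog protein 2-like (notch 2-like A) had 19.1, 20.0 and 20.4 CPM and did not vary beyond counting error (adjusted p = 0.858). The receptors' levels were 21.7 ± 6.47, 9.71 ± 2.08 and 6.98 ± 0.406 TPM (SD, n = 3), and the range of the notch 2 record did not overlap those of the others, which overlapped with each other. The calls of the notch 2 record and of the short strawberry notch record were the only ones of the 24 that were kept under every alternative that could be run for them.

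The canonical Notch ligands carried no word of the selection. Delta was found by reading the descriptions and Jagged by another word. Delta, a membrane ligand of Notch, stood as 4 records, 1 of them without counts. The main part had 100, 123 and 156 counts, or 5.60, 6.85 and 8.02 TPM. A second Delta record, which overlaps the main part on the same strand so that reads may have been divided between them, had 29, 59 and 10 counts (adjusted p = 2.36e-09), so that replicate 2 was the highest and replicate 3 the lowest. Jagged-1b, of the other ligand family, had 33, 37 and 49 counts and was not called (adjusted p = 0.575). The summed Delta records had 9.76, 15.9 and 12.4 TPM and the summed Notch receptors 45.9, 38.9 and 30.4 TPM. The Delta sum includes a further part of the main part's split model, of 377 bases, with 8, 18 and 12 counts (2.87, 6.42 and 3.95 TPM). The log2 ratio was -1.60 ± 0.54 and negative in 3 of 3 libraries (SD, n = 3; exact two-sided sign-flip permutation test, p = 0.25). With the most abundant record of each class the ratio was -1.63. The delta and Notch-like epidermal growth factor-related receptor (DNER-type), a Notch ligand in mammals, had 32, 44 and 24 counts (adjusted p = 0.0245), a call lost without replicate 2 or replicate 3 and with scaling to total counts. The Notch-regulated ankyrin repeat protein, a feedback inhibitor in vertebrates, had 33, 19 and 30 counts and was not called (adjusted p = 0.212).

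Among the other Notch pathway genes, 7 of 16 records tested varied beyond counting error (43.8%, against 54.5% of all records), and the gamma-secretase and sheddase that cut the receptor were among the more abundant. Presenilin had 29.5, 25.5 and 26.0 TPM, Nicastrin 28.8, 23.5 and 23.8 TPM and the metalloproteinase ADAM10 (isoform X1) 21.7, 18.3 and 14.8 TPM. Fringe, which adds sugars to Notch, had 26.9, 23.9 and 23.1 CPM. The nuclear partners were lower: Suppressor of hairless, the DNA-binding protein of the pathway, stood as 2 parts at 2.93 ± 0.445 and 3.46 ± 0.887 TPM (SD, n = 3), and mastermind-like at 10.6, 8.75 and 5.57 TPM (adjusted p = 4.99e-13). Of the targets, enhancer of split mgamma-like had 15.9, 10.8 and 15.0 TPM and HES-1 had 3.88, 6.29 and 7.52 TPM.

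The records named for another gene made up 5 of the 10 Notch records. Notchless, a factor of ribosome assembly, had 34.2, 23.4 and 29.5 TPM, and the chaperonin subunit 21.0, 15.8 and 16.3 TPM. Both were called (adjusted p = 0.0373 and 0.0197) with replicate 1 highest, and both lost the call without replicate 1 and with scaling to total counts; notchless also lost it without replicate 2. Strawberry notch, a nuclear helicase-family protein linked to Notch in Drosophila, had a short record with 63.8, 51.8 and 36.9 CPM (adjusted p = 4.52e-14) and a long one with 7.91, 7.53 and 12.4 CPM (adjusted p = 0.00221). These overlap by 3496 bases on the same strand and ran in opposite directions, the short record being lowest and the long one highest in replicate 3. The call of the long record was lost without replicate 3. The strawberry notch homolog 2 record had 12.3, 11.2 and 9.38 CPM and was not called (adjusted p = 0.23).

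**Figure D3:**
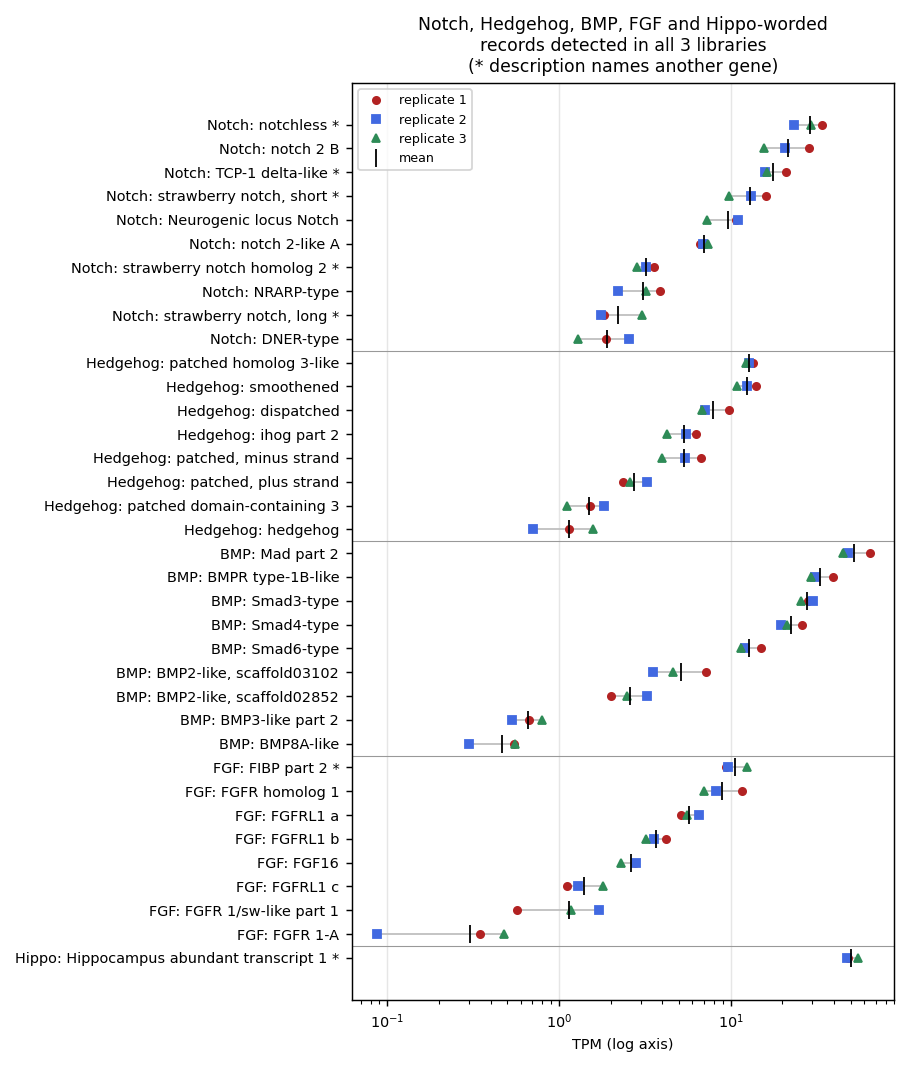
Level in TPM (log axis) of the Notch, Hedgehog, BMP, FGF and Hippo-worded records detected in all 3 libraries, sorted within each pathway; coloured points are the libraries, black bars their mean, and an asterisk marks a description that names another gene. Hedgehog and the BMP ligands lie at or below 10 TPM, whereas the Smad records and the BMP receptor lie above it.

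In the Hedgehog pathway the ligand was close to the detection limit, while the receiving side was clearly detected. The single hedgehog record (described as sonic hedgehog protein A; scaffold02327, 1040 to 1986, plus strand) had 8, 5 and 12 counts, or 1.14, 0.710 and 1.57 TPM. Dispatched, which releases the lipid-modified ligand, had 38.3, 27.9 and 25.4 CPM (adjusted p = 5.21e-06), and replicate 1 was its highest library. Patched, the Hedgehog receptor, stood as 2 records on scaffold00848 that overlap by 352 bases on opposite strands. The one on the minus strand had 20.7, 16.7 and 11.6 CPM (adjusted p = 3.65e-05), a 1.77-fold range with replicate 3 lowest, whereas the one on the plus strand had 3.78, 5.18 and 3.92 CPM (adjusted p = 0.379). The co-receptor interference hedgehog (part 2) had 17.5, 15.3 and 11.1 CPM (adjusted p = 0.00355). Smoothened (Dapma7bEVm000801sc03376NoSplit; scaffold03376, 69360 to 74544, plus strand) had 14.1, 12.5 and 10.9 TPM, or 45.9, 40.7 and 33.8 CPM (adjusted p = 0.00064).

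In each of these 4 called records of the receiving and releasing side replicate 1 was the highest and replicate 3 the lowest library. Over all tested records 14.0% had this order as a call. The call of dispatched was lost without replicate 1, those of Patched and interference hedgehog without replicate 3, and that of Smoothened without either of these and with scaling to total counts (adjusted p = 0.0516). Summed over its 2 records Patched had 9.07, 8.65 and 6.55 TPM, so that Smoothened exceeded it by 0.63 ± 0.10 on the log2 scale and hedgehog lay at -2.77 ± 0.73 relative to it (SD, n = 3). Both ratios kept their sign in 3 of 3 libraries (exact two-sided sign-flip permutation test, p = 0.25 each). A patched homolog 3-like record had 13.5, 12.8 and 12.2 TPM and was not called (adjusted p = 0.214), and the patched domain-containing 3 record had 59, 71 and 47 counts (adjusted p = 0.027), a call lost without replicate 2 or replicate 3 and with scaling to total counts.

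Further down the Hedgehog pathway, 6 of 10 records tested varied beyond counting error (60.0%, against 54.5% of all records). Cubitus interruptus, the transcription factor of the pathway, had 57.5, 55.0 and 40.2 CPM (adjusted p = 5.23e-07). The kinase fused had 9.72, 11.3 and 12.2 TPM, and suppressor of fused had 5.80, 6.66 and 8.22 TPM. Neither of these was called (adjusted p = 0.171 and 0.172). The main catalytic and regulatory (type I) records of protein kinase A, which phosphorylates Cubitus interruptus, had 37.2, 32.8 and 30.8 TPM and 38.6, 33.2 and 31.5 TPM.

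BMP ligands were scarce, whereas the BMP receptor among the members and the Smads were among the more abundant records. Of 6 ligand records, 4 were detected in all libraries. The BMP2-like record on scaffold03102 had 7.15, 3.56 and 4.65 TPM and that on scaffold02852 had 2.01, 3.27 and 2.50 TPM. BMP2 is the vertebrate relative of Drosophila Decapentaplegic. BMP3-like part 2 rested on 10, 8 and 13 counts and BMP8A-like on 9, 5 and 10, and BMP10 and BMP3-like part 1 had none. Of the 3 ligands tested, the BMP2-like record on scaffold03102 was called (10.2, 5.06 and 6.29 CPM; adjusted p = 0.000633), and it lost the call without replicate 1.

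The single member described as a BMP receptor, type-1B-like (scaffold00512, 1186167 to 1188798, plus strand), had 39.5, 31.2 and 29.5 TPM. Mothers against dpp, the Smad that BMP receptors phosphorylate in Drosophila (part 2; Dapma7bEVm010496sc01728Split02; scaffold01728, 41271 to 46733, plus strand), had the highest mean of the 69 records, with 64.7, 48.2 and 45.2 TPM, although its range overlapped that of the sFRP5-like record. The Smad3-type record, whose vertebrate counterpart serves the activin and transforming growth factor beta branch, had 28.3, 30.1 and 25.6 TPM. The Smad4-type record, the partner shared by both branches, had 26.1, 19.7 and 21.3 TPM, and the inhibitory Smad6-type record 15.0, 12.2 and 11.4 TPM. The ranges of Mothers against dpp, Smad3-type and Smad6-type did not overlap one another, whereas that of Smad4-type overlapped with Smad3-type.

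The receptor member and the 4 Smads all varied beyond counting error, and in 4 of these 5 replicate 1 was the highest library. Over all records tested 54.5% were called, or 63.8% at a mean count of at least 50. A call with replicate 1 highest was made for 23.8%. Mothers against dpp had 111, 83.1 and 74.0 CPM (adjusted p = 4.58e-16), the receptor 75.4, 59.7 and 53.5 CPM (adjusted p = 7.55e-08), Smad4-type 55.7, 42.3 and 43.2 CPM (adjusted p = 0.000102) and Smad6-type 20.8, 17.0 and 15.0 CPM (adjusted p = 0.0259). Each of these calls was lost without replicate 1, and that of Smad6-type also without replicate 3. Smad3-type, the exception, had 46.2, 49.2 and 39.7 CPM (adjusted p = 0.0167), a call lost without replicate 2 or replicate 3 and with scaling to total counts, which also ended that of Smad6-type. Over the 9 detected BMP records the median deviation was 0.37, -0.13 and -0.18 in replicates 1, 2 and 3, and 8 of 9 were higher in replicate 1. Among all detected records 10029 of 19927 were.

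It was not the only receptor record of this pathway, as others were found by other words for BMP pathway genes. Their type-1 records reached similar levels. The transforming growth factor beta receptor type-1 had 32.5, 33.9 and 34.6 TPM and the activin receptor type-1 had 31.1, 28.1 and 29.1 TPM, and neither was called (adjusted p = 0.762 and 0.174). The parts of activin receptor type-2A had 7.86, 6.21 and 7.40 TPM and 12.1, 14.9 and 13.1 TPM. Extracellular antagonists were scarce, as noggin-2-like part 2 had 15, 10 and 13 counts and the detected chordin-like part 40, 58 and 64. Tolloid-like protein 1, a protease that cleaves such antagonists, had records that ran in opposite directions: 10.9, 18.1 and 26.0 CPM in one (adjusted p = 6.69e-12) and 74.6, 64.3 and 53.3 CPM in the other (adjusted p = 4.18e-07). In all, 4 of 11 tested records of this group were called (36.4%, against 54.5% of all records).

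FGF ligands and receptors were low, and none of their records had a mean above 10 TPM. The ligand FGF16 had 98, 100 and 88 counts over 4750 bases, or 2.79, 2.83 and 2.30 TPM, and did not vary beyond counting error (adjusted p = 0.203). Only 1 of 6 receptor records was well detected, FGF receptor homolog 1 (scaffold00915, 780820 to 791550, plus strand), with 33.2, 23.7 and 18.9 CPM, a 1.76-fold range (adjusted p = 3.01e-08) that lost its call without replicate 1. The other receptor records had between 0 and 12 counts in each library, and those on scaffold02678 overlap one another. The 3 records of FGF receptor-like 1, a relative without the kinase domain, lay side by side on scaffold01663 with gaps of 211 and 15365 bases. Their levels were 5.75 ± 0.722, 3.68 ± 0.494 and 1.40 ± 0.364 TPM in the order of their position (SD, n = 3), their ranges did not overlap, and none was called (adjusted p = 0.202, 0.258 and 0.363). FIBP part 2, named for another gene, had 9.45, 9.73 and 12.5 TPM (adjusted p = 0.265). Of the feedback inhibitors, the sprouty record had 13.3, 21.4 and 17.8 CPM, or 8.57, 13.7 and 12.0 TPM (adjusted p = 0.00107), with replicate 1 lowest, and the sprouty-related record 20.6, 21.9 and 15.9 CPM (adjusted p = 0.0178).

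For the Hippo pathway the selection held no pathway gene. Hippocampus abundant transcript 1 had 48.5, 47.4 and 55.4 TPM and was not called (adjusted p = 0.101), although it was with scaling to total counts (adjusted p = 4.55e-05). The genes found by other words numbered 22 records, of which 19 were tested and 12 varied beyond counting error (63.2%, against 54.5% of all records). The records of serine/threonine-protein kinase 3 were found by reading the descriptions and are not in this count, and none of them was called. The main part of the record described as serine/threonine-protein kinase 3, the vertebrate counterpart of the Hippo kinase, had 17.1, 20.6 and 21.8 TPM and was not called (adjusted p = 0.0729). Its scaffold partner salvador had 18.3, 14.3 and 13.0 TPM (adjusted p = 0.000413). Warts, the next kinase, had 18.7, 17.7 and 15.1 TPM (adjusted p = 4.94e-05), and its activator MOB kinase activator-like 1 had 44.9, 35.3 and 33.1 TPM (adjusted p = 0.000245). Merlin, an upstream scaffold, had 6.83, 6.61 and 8.26 TPM (adjusted p = 0.41). The transcriptional enhancer factor TEF-1, the DNA-binding partner of Yorkie, had 15, 9 and 15 counts in its main part. The smallest adjusted p of this group were those of giant cadherins, which were included by the words of their descriptions alone. The fat-like cadherin-related tumor suppressor had 138, 169 and 73.3 CPM (adjusted p = 5.19e-76). Dachsous had 50.4, 48.3 and 25.7 CPM (adjusted p = 2.92e-18), and a cadherin-related tumor suppressor 88.8, 64.2 and 35.1 CPM (adjusted p = 1.05e-45). In these 3 cadherins replicate 3 was the lowest library.

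**Figure D4:**
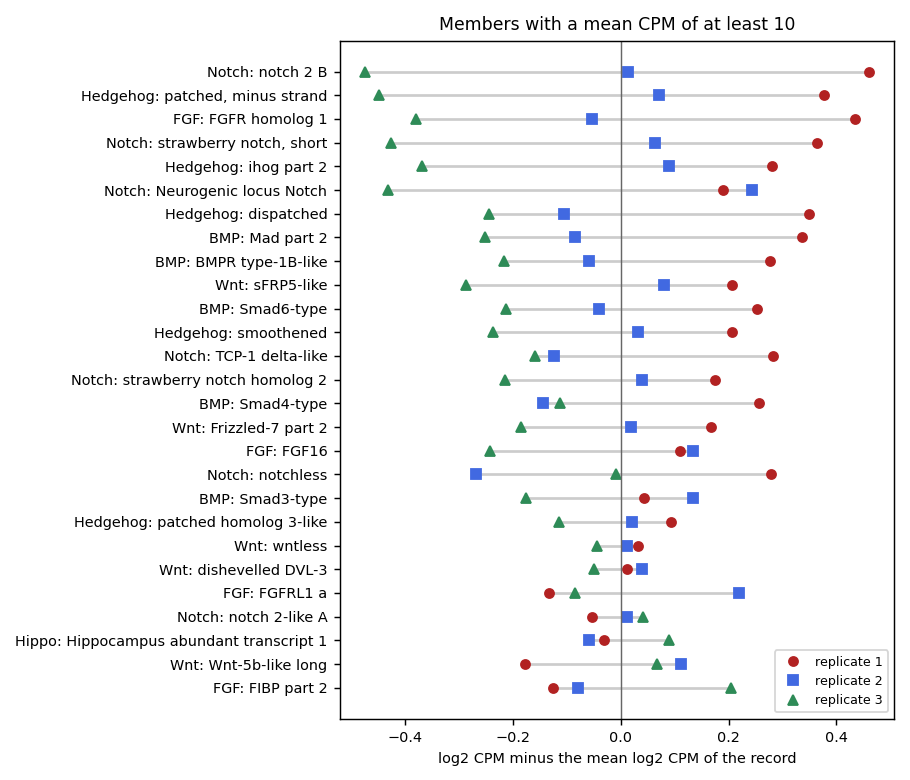
Log2 CPM of each library minus the mean log2 CPM of the record, for the 27 members with a mean CPM of at least 10, sorted by replicate 1 minus replicate 3; a grey line joins the lowest and the highest library. Replicate 1 lies right of replicate 3 in most records, and the notch 2 record at the top has the widest range, 1.91-fold.

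Across the pathways, the called records leaned in 1 direction. Of the 24 called members, 17 had replicate 1 as the highest library (34.7% of the 49 tested, against 23.8% over all records tested) and 18 had replicate 3 as the lowest (36.7%, against 19.4%). In 14 both held (28.6%, against 14.0%). Of the 72 other pathway genes tested, 43 were called (59.7%), and 29 of them had this order (40.3%). With scaling to total counts 18 members were called (36.7%, against 57.3%), and 10 had this order (20.4%, against 8.64%). The median deviation of the 56 detected members was 0.13, 0.04 and -0.15 in replicates 1, 2 and 3, whereas that of all records was 0.00, 0.01 and 0.01. Scaling to total counts moved the median of all records to -0.08, -0.03 and 0.13. Relative to it the members stood at 0.12, 0.03 and -0.16, as they did with TMM scaling at 0.13, 0.03 and -0.16. By pathway the deviation of replicate 1 was 0.34 for Notch, 0.22 for Hedgehog and 0.37 for BMP, but -0.15 for Wnt and -0.01 for FGF. That of replicate 3 was -0.27, -0.36 and -0.18, and -0.06 and -0.03. With scaling to total counts those of replicate 3 changed sign for Wnt (0.07) and FGF (0.08). Relative to the median of all records they were -0.06 and -0.05, against -0.07 and -0.04 with TMM. These medians include the records named for another gene. Without such records Notch stood at 0.28 and FGF at 0.16 in replicate 1 with TMM, and at -0.64 and -0.12 in replicate 3. The 14 detected other Wnt genes, which are not members, stood at 0.43 in replicate 1 and -0.45 in replicate 3.

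**Figure D5:**
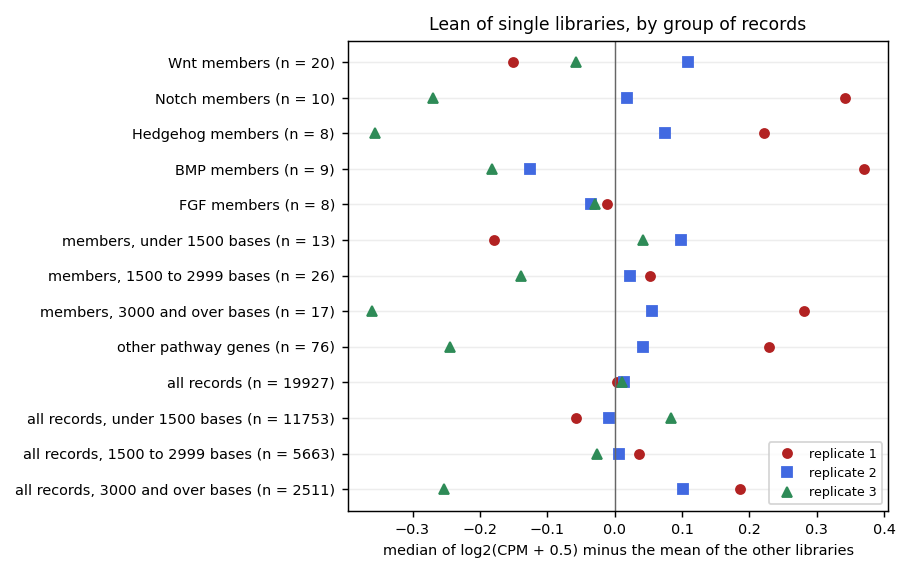
Median over records of log2(CPM + 0.5) in 1 library minus the mean of the other libraries, for members by pathway and by length of the record, for the other pathway genes and for all records, with the number of records detected in all libraries; the vertical line is 0. Notch, Hedgehog and BMP members lie right of 0 in replicate 1 and left of it in replicate 3, as do records of at least 3000 bases.

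Long records as a whole ran in the same direction. Members of at least 3000 bases (17 records) deviated by 0.28, 0.06 and -0.36 in replicates 1, 2 and 3, and all records of that length (2511) by 0.19, 0.10 and -0.25. Members under 1500 bases (13 records) deviated by -0.18, 0.10 and 0.04, and all records of that length by -0.06, -0.01 and 0.08. The other pathway genes under 1500 bases (26 records) did not follow this, with 0.26, -0.07 and -0.15, and those of at least 3000 bases (17 records) had 0.29, 0.11 and -0.48. Marker sums of some cell types were also highest in replicate 1 and lowest in replicate 3. The 24 ovary and germline markers, 18 of them detected in all libraries, summed to 2243, 1597 and 1350 CPM. The 28 markers of dividing cells summed to 2252, 1433 and 1395 CPM. Of these 28, 9 were found by the words cyclin-dependent kinase 1, which also match kinases with a longer number that begins in 1. The median deviations of the detected markers were 0.36, -0.07 and -0.23 for ovary and germline and 0.40, -0.26 and -0.20 for dividing cells. The 27 muscle markers summed to 8166, 7632 and 5108 CPM, but their median deviations were 0.01, 0.16 and -0.26, and 11 of the 21 detected were higher in replicate 1 and 14 in replicate 2. The sum of the 353 cuticle records was lowest in replicate 1, at 6362, 9643 and 8922 CPM. Of the 108 detected in all libraries, 38, 69 and 67 were higher in replicates 1, 2 and 3. Nervous system markers (33 records, 8 of them found by syntaxin-1 in the same way) summed to 526, 539 and 459 CPM. Gut markers (180 records, 123 of them detected in all libraries) summed to 19424, 19989 and 20217 CPM. The part of record length and of these cell types in the differences between libraries was not tested.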

How the data were processed

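Total RNA of 3 wild-type pools of 5 daphnids was sequenced after oligo(dT) enrichment and random priming. The authors mapped the reads in CLC Genomics Workbench 12 to the wFleaBase genome of D. magna and deposited total counts per record, without normalization. Neither the genome and annotation versions nor the strandedness of counting are stated in the sources used. The authors also deposited RPKM and TPM values, which take length into account, and a signal named CPM, a scaled count with the TMM effective size as divisor. Blast2GO descriptions are those of the authors; a name is that of a similar protein, not of a proven ortholog, and spans do not separate exons from introns. Of the 69 record names, 0 matched the RefSeq gene table, so no sequence is shown.

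The members and all lists were chosen with earlier results of these data known. Total counts were 8843488, 8679171 and 9092389, which was 80.5%, 80.8% and 82.5% of the library totals that the RPKM values imply. TMM factors and trended dispersions came from edgeR 4.0.16 (R 4.3.3), and all else from Python 3.11.15 (scipy 1.17.1, pandas 2.3.3, numpy 2.4.6, matplotlib 3.10.9). Homogeneity of the counts over libraries was tested by chi-square on records whose mean count reached 10, with Benjamini-Hochberg adjustment over 15516 records at 0.05, and by its negative binomial form. The first was tried on data simulated with counting error alone and the second on data with the trended dispersion, where it recovered far fewer changes. Within-library ratios of summed TPM (pseudocount 0.1) were tested by exact sign-flip permutation, two-sided. No pair of libraries agreed within counting noise (chi-square per degree of freedom 15.95 to 24.9). Per the study's methods, cultures were repeated for each replicate, but these libraries were prepared and sequenced elsewhere. The chi-square p-values set differences between these pools, preparation included, against counting error. Those of the negative binomial form set them against the trended dispersion.

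Named were, per pathway, the 4 most abundant members, the most abundant of each word, and the 2 with the widest CPM range among those with a mean CPM of at least 10. Further members were named by role or position, and the Delta and Hippo kinase records were added by reading descriptions, after the lists had been written. For the 52 members that overlap another record, reads may have been divided between the overlapping records. Alternatives were DESeq2 1.42.0 size factors, scaling to total counts, other filters and pseudocounts, non-overlapping records alone and leaving out each library.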

Additional observations from a re-analysis of the deposited data

How the results depend on the processing

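No paired analysis was possible because the series holds only 1 group, so that there is no other group with which a replicate number could be shared. Leaving out each library in turn gave 11 to 20 called members in place of 24 (11 without replicate 1, 20 without replicate 2 and 12 without replicate 3) and 23 to 39 called records among the other pathway genes in place of 43 (26, 39 and 23). The share called fell over all records too, to 29.0%, 45.0% and 38.6% without replicates 1, 2 and 3, where 22.0%, 40.8% and 25.5% of the members tested were called. In records that overlap no other record, 7 of 14 members (50.0%, against 50.1% of all such records) and 16 of 29 other pathway genes were called. Members with a library apart from both others numbered 1 of 27 at 1.5-fold in place of 0. The members' median level lay at percentile 52.6 by CPM, in place of 39.2 by TPM, a shift beyond the SD of 1.97 over libraries. Among members whose mean CPM reached 10 the median deviation was 0.30 in replicate 1 and -0.31 in replicate 3, and in non-overlapping records it was 0.28 in replicate 1; these sets hold 27 and 15 records, and the cause of the shifts was not tested. With scaling to total counts the deviation was 0.04, -0.00 and -0.03, and relative to the median of all records it was 0.12, 0.03 and -0.16, against 0.13, 0.03 and -0.16 with TMM. The 4 ratios between classes kept their sign under each alternative run, but their size did not hold. With the most abundant record of each class Frizzled minus Wnt ligands was 2.60 in place of 0.88 and Smoothened minus Patched 1.23 in place of 0.63. In CPM, which does not remove length, Delta minus Notch receptors was -3.28 in place of -1.60, Hedgehog minus Patched -4.37 in place of -2.77 and Smoothened minus Patched 0.97. Of the 24 calls, 2 held under every alternative that could be run for them and 22 were lost under at least 1, and 2 further members were called under at least 1. At this depth the 10 members without counts, and differences in records of a few counts such as hedgehog, could not be resolved.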
